A study of Mus musculus with 2 samples.

Results

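Neutrophils are short-lived granulocytes that enter tumors from the blood, and in these single-cell libraries they were a small set of cell barcodes with very high counts of the calcium-binding alarmin genes S100a8 and S100a9. A barcode was taken as a tumor neutrophil when it held at least 20 unique molecular identifiers (UMIs) of S100a8 and S100a9 together, at least 1 UMI of Csf3r, Cxcr2 or Retnlg, no UMI of Cd3d, Cd3e or Cd3g and fewer than 10 UMIs of C1qa, C1qb and C1qc together. It also had to show at least 200 genes and at most 10% of UMIs from mitochondrially encoded genes. These limits gave 101 neutrophils among 19950 barcodes that passed the gene and mitochondrial limits, out of 20407 barcodes in all. The MWA library held 46 neutrophils of 10037 kept barcodes and the MWA plus TIGIT library held 55 of 9913.

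Both libraries came from C57BL/6 mice that carried MC38 colon tumors in both flanks. The tumor of the right flank was treated by microwave ablation (MWA) at a volume of about 300 mm3, and CD45+ cells were sorted 8 days later from the left tumor, which was not ablated. The MWA plus TIGIT group also received anti-TIGIT antibody into the peritoneum every 3 days from day 1, given 3 times by the labels and 4 times by the study's methods, which name male mice. The MWA group received an isotype control antibody, as the legend of a figure states. Each group is 1 library, the number of mice behind a library is not given, and no library from an untreated tumor was analysed here. Without replicates no difference between the groups could be tested. Every interval printed here is a 95% interval for counting error, and none covers variation between mice or between library preparations. Intervals of levels and ratios treat UMIs as independent draws, so they also leave out variation between cells.

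Neutrophils mature in the bone marrow under G-CSF, whose receptor is encoded by Csf3r, and filling of their granules follows a fixed order, with primary granule proteins made first and gelatinase last. Mature cells leave the marrow and reach tissue through receptors such as Cxcr2, which binds the chemokines Cxcl1, Cxcl2 and Cxcl3. In tumors they are known for making Il1b and chemokines, for reactive oxygen and protease release, and for both antitumor and immunosuppressive activity. They carry little RNA, so droplet libraries recover few UMIs from each one.

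The shallow depth of neutrophils was plain in both libraries. The median neutrophil held 1057.5 UMIs and 446.5 genes in the MWA library and 1273 UMIs and 494 genes in the MWA plus TIGIT library. The median of all other kept barcodes was 5768 UMIs in the MWA library and 6892.5 in the MWA plus TIGIT library. Neutrophil depth ran from 500 to 2917 UMIs in the MWA library and from 518 to 8771 in the MWA plus TIGIT library. Their median share of mitochondrial UMIs was 0.687% and 0.256%, in that order. Across both libraries 37 barcode sequences were shared, and 1 neutrophil barcode was among them.

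The summed S100a8 and S100a9 count, which chose the cells, had no gap at the limit. In the MWA library it ran from 23 to 1206 UMIs per neutrophil with a median of 87.5, and in the MWA plus TIGIT library from 21 to 1761 with a median of 156. Just inside the limit, at 20 to 49 UMIs, lay 16 neutrophils of the MWA library and 4 of the MWA plus TIGIT library. Just outside, at 10 to 19 UMIs and with every other limit met, lay 5 and 9 barcodes. A Retnlg UMI was found in 15 of the 16 and 3 of the 4 barcodes just inside, and in 3 of the 5 and 4 of the 9 just outside. The chemokine gene Cxcl2, which the limits did not use, had a median of 15 UMIs just inside in the MWA library and 4.5 in the MWA plus TIGIT library, against 27 and 13 just outside. Il1b, also not used, had medians of 4.5 and 4 UMIs just inside against 1 and 0 just outside, so the barcodes on either side of the limit were not alike in every gene. Median depth was 759 and 831 UMIs just outside, beside 915 and 738.5 just inside.

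**Figure D1:**
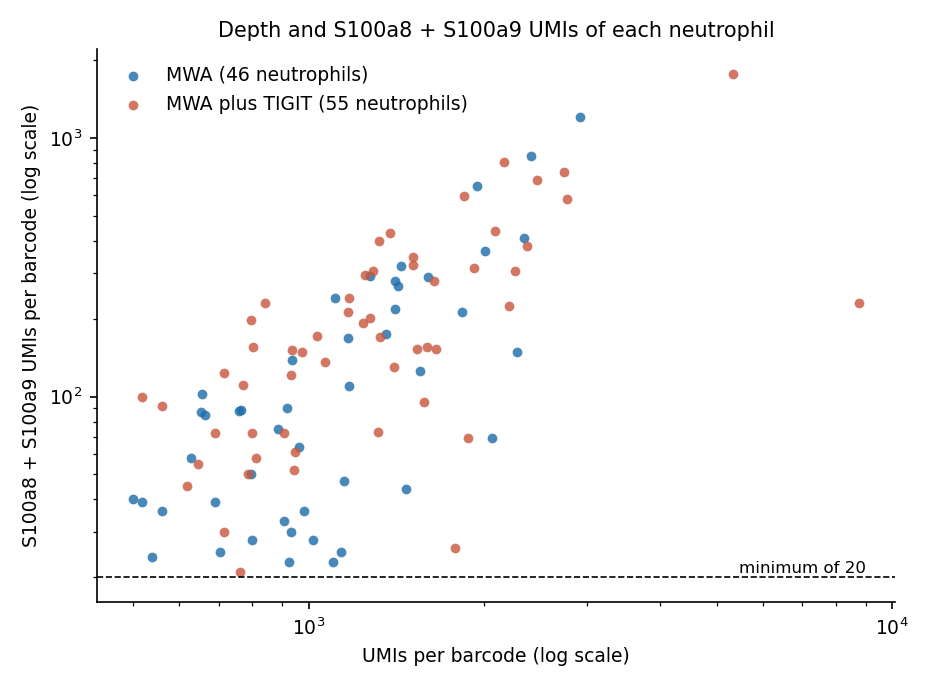
Each point is 1 neutrophil, with UMIs per barcode on the horizontal axis and S100a8 plus S100a9 UMIs on the vertical axis (both log scale), colored by library, and the dashed line is the minimum of 20. Counts in the MWA plus TIGIT library reach 1761 and its deepest barcode, at 8771 UMIs, holds 229 of them.

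The other limits left 46 of 70 and 55 of 73 barcodes. Of the 70 kept barcodes of the MWA library that reached 20 S100a8 and S100a9 UMIs, 13 lacked a UMI of Csf3r, Cxcr2 and Retnlg, 6 had a Cd3 UMI and 5 had 10 or more C1q UMIs. Of the 73 in the MWA plus TIGIT library the counts were 9, 5 and 4. A C1q UMI below that limit was present in 28 of the 46 and 30 of the 55 neutrophils.

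Markers of neutrophils outside the selection were present in both libraries. Hdc, the histidine decarboxylase of granulocytes, stood at 1323 CPM (a gene's UMIs per 1000000 UMIs of all neutrophils of a library) in the MWA library and 1389 CPM in the MWA plus TIGIT library, against 0.890 and 0.957 CPM in T cell-like barcodes. G0s2, a lipase inhibitor of neutrophils, stood at 4602 and 4202 CPM, and the gelatinase gene Mmp9 at 580 and 404 CPM. Ly6g, which encodes the surface antigen used to sort mouse neutrophils, had 4 UMIs in the MWA library and 10 in the MWA plus TIGIT library. The 5 primary granule genes, which immature cells transcribe, gave 1 UMI, of Prtn3, in the MWA library and 0 in the MWA plus TIGIT library, so Mpo and Elane were at 0 among 55197 and 84249 neutrophil UMIs.

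Markers of most other cell types were at or near 0 in these neutrophils. The selection limits on Cd3 and C1q UMIs bear on the T cell and macrophage lists, so their counts are set in part by the choice. The lists for dendritic cells (8 genes), eosinophils (7), basophils and mast cells (7) and tumor and stroma (9) gave 0 UMIs in both libraries. The 14 T and NK cell genes gave 7 UMIs in each library, which is 127 and 83.1 CPM against 5711 and 6798 CPM in T cell-like barcodes, led by Nkg7 with 2 UMIs in the MWA library and Trac with 2 in the MWA plus TIGIT library. The B and plasma cell list gave 1 and 3 UMIs, led by Ighm with 1 and 2, and Cd79a was at 0 in both. The erythrocyte and platelet list gave 3 and 1 UMIs, all of Pf4. The exceptions were the monocyte and macrophage lists. The monocyte list gave 21 UMIs (380 CPM) in the MWA library and 139 UMIs (1650 CPM) in the MWA plus TIGIT library, against 9068 and 10037 CPM in monocyte-like barcodes. The monocyte-like barcodes were chosen in part on Ly6c2, a gene of that list. In T cell-like barcodes the monocyte list stood at 1285 and 1597 CPM. In the macrophage list 11 of 12 genes had a UMI in each library and the sum was 121 UMIs (2192 CPM) and 190 UMIs (2255 CPM). That macrophage sum was 21233 and 25159 CPM in macrophage-like barcodes and 647 and 693 CPM in T cell-like barcodes. Its most abundant gene was Apoe, with 52 and 98 UMIs, and the mannose receptor gene Mrc1 was at 0 in both libraries. The part of macrophage RNA in the results on neutrophils was not tested, apart from leaving out every neutrophil with a C1q UMI.

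The share of neutrophils did not differ detectably between the libraries at this depth. They made up 0.458% of kept barcodes in the MWA library (0.336% to 0.611%) and 0.555% in the MWA plus TIGIT library (0.418% to 0.722%). The difference was 0.0965 percentage points with an interval from -0.108 to 0.303. Among neutrophils, macrophage-like and monocyte-like barcodes together the shares were 1.15% and 1.22%. The reading depended on the S100 limit: with at least 50 S100a8 and S100a9 UMIs in place of 20, 30 and 51 barcodes qualified and the difference was 0.216 points (0.0326 to 0.404), an interval that no longer held 0. The MWA plus TIGIT library had the deeper neutrophils, and the part of depth in that difference was not tested.

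S100a9 and S100a8 were the most abundant genes of these cells in both libraries. S100a8 stood at 69478 CPM in the MWA library and 79728 CPM in the MWA plus TIGIT library, and S100a9 at 72667 and 82232 CPM. S100a8 in T cell-like barcodes, which should lack it, stood at 3.85 and 3.41 CPM. Retnlg, a resistin-like protein of neutrophils, stood at 12736 and 10778 CPM. The receptor genes were far lower, Csf3r at 996 and 1484 CPM and Cxcr2 at 380.5 and 664.7 CPM. All 5 of these genes chose the cells, so their levels describe the choice.

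Among genes that did not choose the cells, 219 of the 446 genes tested (49.1%) were at least 2-fold higher in neutrophils than in all other kept barcodes in both libraries. Tested genes are those with at least 40 UMIs over both libraries and at least 50 CPM in 1 of them, without the selection genes and mitochondrial genes. The genes passed these limits on their counts in neutrophils, and the cells were chosen on S100 counts in the same barcodes. Both choices favor genes that are high in neutrophils, so this share is a description. CPM is also a proportion of all UMIs of a set. Ribosomal protein genes took up 63228 and 73342 CPM in neutrophils, against 303320 and 269156 CPM in all other kept barcodes. Neutrophils were also shallower, so a gene that is 2-fold higher as CPM can be lower per cell. The 20 leading genes were ranked by the smaller of their ratios to other barcodes, and no kind of gene was tested among them. Among them were the antiprotease Slpi at 5055 CPM in the MWA library and 4617 CPM in the MWA plus TIGIT library, the siderophore-binding protein Lcn2 at 3642 and 2991 CPM, and Wfdc21 at 2192 and 1662 CPM. Stefin-type protease inhibitors also appeared, with Stfa2l1 at 1214 and 1780 CPM and Cstdc4 at 1395 and 1591 CPM. Il1r2, a decoy receptor that takes up interleukin 1, stood at 996 and 1021 CPM. Lrg1, a glycoprotein of neutrophil granules, stood at 852 and 700 CPM. Even Cxcl3, the last of the 20, was 126-fold and 135-fold above other barcodes, and Mrgpra2b, a G protein-coupled receptor gene with only 12 and 19 UMIs, was 2389-fold and 2525-fold above them.

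**Figure D2:**
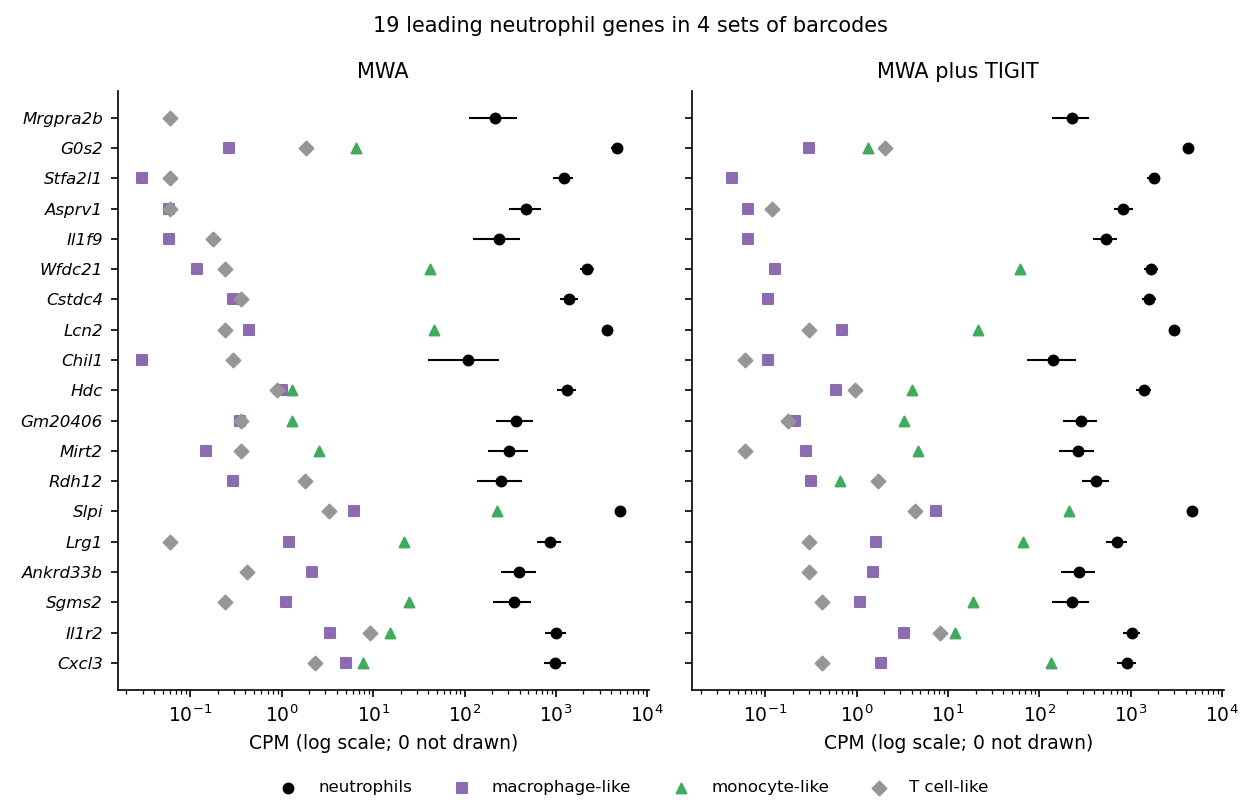
For 19 of the 20 leading genes, points give CPM (log scale) in neutrophils, macrophage-like, monocyte-like and T cell-like barcodes of each library, and black lines are 95% counting intervals in neutrophils. Slpi, at 5055 CPM in the MWA library and 4617 CPM in the MWA plus TIGIT library, is the highest of those drawn.

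As CPM, Fth1, Cxcl2 and Il1b were abundant in neutrophils and present at lower levels in macrophage-like barcodes. Cxcl2, a ligand of Cxcr2, stood at 30418 CPM in the MWA library and 23300 CPM in the MWA plus TIGIT library, against 1148 and 845 CPM in macrophage-like barcodes. Il1b stood at 9348 and 8962 CPM, against 301 and 253 CPM in macrophage-like and 1307 and 1323 CPM in monocyte-like barcodes. Fth1, the heavy chain of the iron store ferritin, reached 64786 and 44048 CPM, against 17656 and 16509 CPM in macrophage-like barcodes. Per cell the direction was the other way for Fth1, with a mean of 77.7 and 67.5 UMIs against 158 and 182 in macrophage-like barcodes. Neutrophils also carried the prostaglandin synthase gene Ptgs2 at 1214 and 1246 CPM and the cystine transporter gene Slc7a11 at 1685 and 1436 CPM. Acod1, which makes the antimicrobial metabolite itaconate, stood at 2210 and 2706 CPM, and Mxd1, a MAX partner of maturing granulocytes, at 2210 and 2125 CPM. Ribosomal protein genes were low in neutrophils, with a sum of 63228 and 73342 CPM against 405269 and 364488 CPM in T cell-like barcodes.

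Between the libraries 346 of the 446 tested genes stood within 1.5-fold of each other. Of the 446 tested genes, 56 (12.6%) were at least 1.5-fold higher in the MWA plus TIGIT library and 44 (9.87%) at least 1.5-fold lower, and these are the genes called higher or lower here. The median log2 ratio of MWA plus TIGIT over MWA was 0.05, and 88 of the 446 intervals did not hold a ratio of 1. The balance of directions depended on the scaling: 56% of calls were higher with UMI totals, 67.0% with TMM factors (71 higher and 35 lower) and 44.6% when each cell's CPM was averaged with equal weight (45 higher and 56 lower).

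The 3 highest finite ratios among tested genes rested on a pair of deep barcodes of the MWA plus TIGIT library. Ngp, a secondary granule protein of immature neutrophils, had 2 UMIs in the MWA library and 114 in the MWA plus TIGIT library (log2 ratio 5.22, 3.34 to 8.29), of which 108 lay in 1 barcode of 5329 UMIs. That barcode also held all 10 Camp UMIs, all 4 Ltf UMIs, 68 of 252 Lcn2 UMIs and 1761 S100a8 and S100a9 UMIs, so it carried secondary granule RNA of several kinds. Camp and Ltf, and below Chil3, were chosen after their values were seen. The monocyte gene Plac8 had 4 and 73 UMIs (3.58, 2.16 to 5.49), of which 66 lay in the deepest barcode of 8771 UMIs and 2530 genes. Crip1, singled out after its values were seen, had 9 and 87 UMIs (2.66, 1.67 to 3.84), with 73 in the same barcode. This barcode held 229 S100 UMIs, 4 Retnlg UMIs, 63 Lyz2 UMIs, 8 of the 9 Ccr2 UMIs, 10 of the 11 Chil3 UMIs and 10.4% of all neutrophil UMIs of its library. The monocyte list as a whole, with 4 of 8 genes found in the MWA library and 7 of 8 in the MWA plus TIGIT library, summed to 380 and 1650 CPM (2.12, 1.45 to 2.85), led by Ly6c2 with 11 UMIs and Plac8 with 73. Without barcodes above 5000 UMIs its sum ratio was 0.39 (-0.43 to 1.25), Plac8 stood at -0.024, Crip1 at 0.29 (-1.02 to 1.68) and Ngp at 1.24.

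Leaving out this pair of barcodes gave 44 higher and 43 lower genes of 410 tested. Of the 56 higher genes 29 were called again, and of the 44 lower genes 30 were. Among ribosomal protein genes 9 of 69 tested genes were higher, near the 12.6% of all tested genes, and 0 lower, with a median log2 ratio of 0.25. Without the pair 0 of 62 were higher and 6 lower, with a median of -0.14. Equal weight per cell gave a median of -0.12 for the 69 genes, so no direction held for this family.

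**Figure D3:**
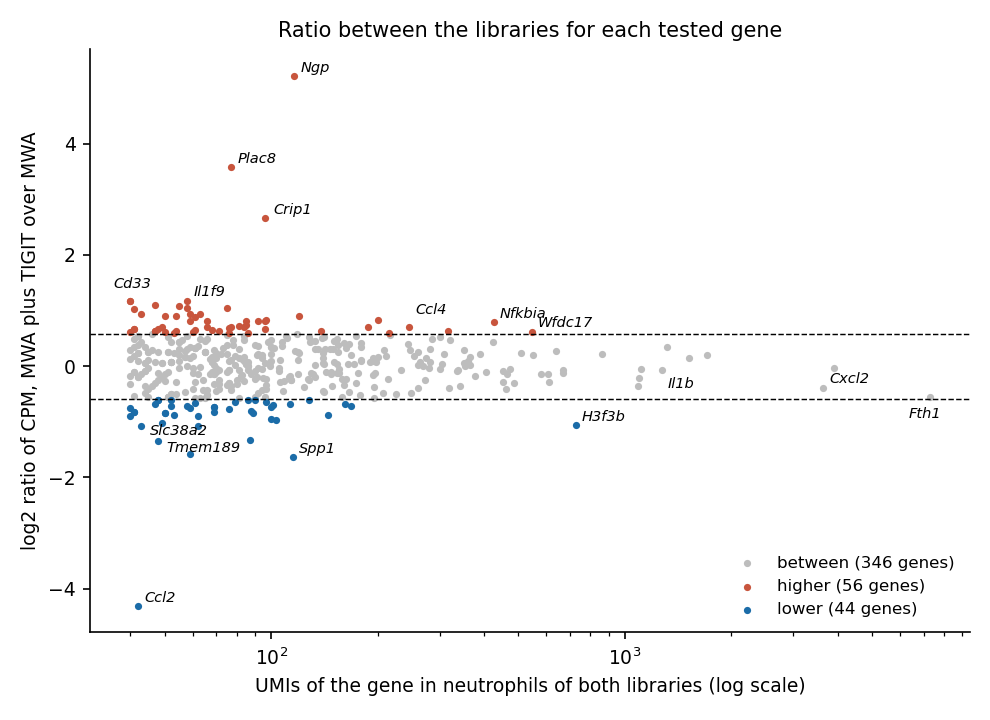
Each point is 1 of the tested genes, with its UMIs over the neutrophils of both libraries on the horizontal axis (log scale) and the log2 ratio of CPM, MWA plus TIGIT over MWA, on the vertical axis. Dashed lines mark 1.5-fold, 56 genes count as higher and 44 as lower, and 1 of the higher genes, Saa3, is not drawn because it had 0 UMIs in the MWA library.

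The genes that rose in the MWA plus TIGIT library without 1 cell carrying them were of several kinds. They were taken as the 10 highest ratios whose interval did not hold 1 and in which no cell of the MWA plus TIGIT library held over 20% of that library's UMIs of the gene. In the MWA library the top cell held 23.1% of Il1f9, 22.2% of Cd33 and 25% of Kctd12 UMIs. Il1f9, which encodes the interleukin 1 family cytokine IL-36 gamma, rose from 235.5 to 534 CPM, on 13 and 45 UMIs (log2 ratio 1.18, 0.27 to 2.20). Cd33, an inhibitory sialic acid receptor of myeloid cells, rose from 163 to 368 CPM (1.17, 0.07 to 2.43). Csf2rb, the shared signaling chain of the GM-CSF, IL-3 and IL-5 receptors, rose from 235.5 to 498.5 CPM (1.08, 0.16 to 2.10). The actin regulators Vasp and Rhoa stood at 1.10 and 0.94, the splicing factor gene Sf3b1 at 1.04, Marcks at 0.94 and Kctd12 at 0.88. Asprv1, a protease gene and 1 of the leading neutrophil genes, rose from 471 to 831 CPM (0.82, 0.15 to 1.53). Most of these 10 genes had few UMIs, from 31 to 70 in the MWA plus TIGIT library, and among the 18 and 25 neutrophils without a C1q UMI Asprv1 stood at -0.053 and both Sf3b1 and Rhoa at 0.21.

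Better counted genes rose less. Nfkbia, the inhibitor that ends NF-kB signaling and is itself a target of it, rose from 2120 to 3668 CPM (0.79, 0.48 to 1.11), on 117 and 309 UMIs in 31 and 43 cells. Ier3, another early response gene of that pathway, rose from 1703 to 2647 CPM (0.64, 0.28 to 1.00). Among neutrophils without a C1q UMI Nfkbia stood at 0.45 and Ier3 at 0.31, both short of 1.5-fold. Wfdc17, a secreted whey acidic protein, rose from 2953 to 4546 CPM (0.62, 0.35 to 0.90), but stood at -0.12 among neutrophils without a C1q UMI. Alox5ap, which presents arachidonic acid to 5-lipoxygenase for leukotriene synthesis, rose from 978 to 1591 CPM (0.70, 0.24 to 1.18), but stood at 0.53, short of 1.5-fold, without barcodes above 5000 UMIs. For these 4 genes no cell held over 20% of the UMIs in the MWA plus TIGIT library. Saa3, an acute phase protein, was singled out after its values were seen. It had 0 UMIs in the MWA library and 48 in the MWA plus TIGIT library. That is 10.5-fold above a floor of 3 counts (54.4 CPM). The lower limit of the log2 ratio was 3.04, but the 48 lay in 3 cells.

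Lower genes were led by 1 abundant gene. H3f3b, which encodes the replication-independent histone H3.3, fell from 7591 to 3656 CPM (-1.05, -1.27 to -0.84), on 419 and 308 UMIs in 40 and 51 cells. It was the best counted of the 44 lower genes, and it stood at 3656 CPM against 3157 CPM in monocyte-like barcodes of the same library. Per cell its mean in that library was 5.6 UMIs in neutrophils, against 21.5 in monocyte-like barcodes. The other 9 genes, chosen by the same limits with the 20% applied to the MWA library, were Tmem189 (-1.35), Slc38a2 (-1.08), Gla (-1.08), Fosl2 (-1.03), Eif5 (-0.88), Ppp1r15a (-0.87), Hspa5 (-0.84), Mbnl2 (-0.82) and Cox8a (-0.81). Ppp1r15a and Hspa5 belong to the response to unfolded proteins: Ppp1r15a, a phosphatase subunit that restarts translation, fell from 1431 to 783 CPM (-0.87, -1.36 to -0.38). Hspa5, the chaperone BiP, fell from 870 to 487 CPM (-0.84, -1.48 to -0.21). Among neutrophils without a C1q UMI Ppp1r15a stood at -0.52, Fosl2 at -0.37, Hspa5 at 0.085 and the translation factor gene Eif5 at 0.40. Without barcodes above 5000 UMIs Mbnl2 stood at -0.56, and the intervals of Mbnl2, Slc38a2, Eif5, Vasp and Rhoa held equal levels. Cox8a stood at -0.56 in neutrophils with at least 500 genes. Slc38a2 is a neutral amino acid transporter, Gla a lysosomal galactosidase and Fosl2 an AP-1 subunit.

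Over all tested genes 12.6% were higher and 9.87% lower, and the counts of granule and identity genes stand beside these shares. Among 7 tested secondary and tertiary granule genes 1 was higher (Ngp) and 1 lower (Hp, which encodes haptoglobin, from 1159 to 760 CPM), with a median of -0.28 beside 0.05 over all tested genes. Their sum was 7029 CPM in the MWA library and 7371 CPM in the MWA plus TIGIT library (0.07, -0.12 to 0.26), and without barcodes above 5000 UMIs its ratio was -0.39 (-0.60 to -0.19). Without those barcodes Hp stood at -0.44, short of 1.5-fold, and Ngp had too few UMIs to be tested. Mmp9 was then the 1 lower gene of 5 tested, at -0.65 (-1.45 to 0.15). Of 19 tested identity genes outside the selection, 4 were higher (Wfdc17, Asprv1, Cd33 and Il1f9) and 0 lower, with a median of 0.07. Their sum was 28136 and 31205 CPM (0.15, 0.06 to 0.24). Among 8 tested chemoattractant and adhesion receptors 2 were higher and 0 lower, with a median of 0.27, and without barcodes above 5000 UMIs 4 of 8 were higher, with a median of 0.39. The complement receptor gene C5ar1 was 1 of the 2, with 14 and 33 UMIs (0.63, -0.31 to 1.64) and an interval that held equal levels. Cxcr4, the marrow retention receptor linked to aging neutrophils, had 16 and 17 UMIs.

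Ccl4 was higher and Ccl2 lower among chemokine genes. Of 6 tested, 1 was thus higher and 1 lower, beside 12.6% higher and 9.87% lower over all tested genes, with a median of -0.25, and the summed level was 36669 CPM in the MWA library and 29175 CPM in the MWA plus TIGIT library (-0.33, -0.42 to -0.24). Without barcodes above 5000 UMIs the sum ratio was -0.11 (-0.20 to -0.026) and the list median -0.014. Most of that sum was Cxcl2, whose ratio of -0.38 (-0.48 to -0.29) was short of 1.5-fold and was -0.17 without barcodes above 5000 UMIs. Ccl4, a chemoattractant of T cells and monocytes, rose from 1268 to 2077 CPM (0.71, 0.30 to 1.13), but stood at 0.43 in neutrophils with at least 500 genes and at 0.53 with cells thinned to 1000 UMIs. Its neighbor Ccl3 did not follow, at 1631 and 1258 CPM (-0.37, -0.79 to 0.05). Ccl2, which draws monocytes through Ccr2, fell from 39 to 3 UMIs (707 to 35.6 CPM; -4.31, -6.65 to -2.66). Of the 39 UMIs 17 lay in 1 cell of 1830 UMIs, and Ccl2 stood at 952 and 690 CPM in macrophage-like barcodes. When cells were thinned to 1000 UMIs before summing, which left out 22 and 21 cells, the list median was 0.18, and with equal weight per cell it was -0.17. The cause was not tested.

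Inflammatory, interferon and immediate early genes were abundant in both libraries, and their calls stand beside 12.6% higher and 9.87% lower over all tested genes. Of 11 tested inflammatory cytokines and regulators, 2 were higher (Nfkbia and Ier3) and 1 lower (Vegfa), with a median of 0.00 and sums of 22248 and 23549 CPM. Vegfa, and below Ifitm6, Rtp4, Klf6 and Slc2a1, fall outside the rule for named genes and were chosen after their values were seen. Without barcodes above 5000 UMIs the ratio of the inflammatory sum was 0.28 (0.17 to 0.38). Of 11 tested genes 2 were then higher and 0 lower, so Vegfa was no longer called. Of 12 tested interferon-induced genes 0 were higher and 2 lower (Ifitm6 and Rtp4), with a median of 0.07 that was -0.11 with cells thinned to 1000 UMIs. The sum over the list was 18443 and 20689 CPM (0.17, 0.05 to 0.28), against 15041 and 16706 CPM in monocyte-like barcodes and 5152 and 5434 CPM in T cell-like barcodes. Per cell the mean of the list was 22.1 and 31.7 UMIs in neutrophils, below the 79.7 and 114 of monocyte-like barcodes. In macrophage-like barcodes it was 52.0 and 66.7 UMIs, and in T cell-like barcodes 21.6 and 24.1. The sum in neutrophils was led by Ifitm1, a membrane restriction factor, at 3623 and 4166 CPM. The antiviral gene Rsad2 stood at 1341 and 1507 CPM and the ubiquitin-like modifier gene Isg15 at 1304 and 1448 CPM, both within the 1.5-fold range. Of 13 tested immediate early genes 0 were higher and 2 lower (Fosl2 and Klf6), with a median of -0.14, and Junb was the most abundant at 3297 and 3881 CPM.

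TIGIT and its ligands gave too few UMIs in neutrophils for a level. Tigit had 0 UMIs in both libraries, as did Nectin2, and Pvr, which encodes the main TIGIT ligand CD155, had 1 UMI in the MWA library and 0 in the MWA plus TIGIT library. At this depth 3 UMIs, the number a count of 0 allows, are 54.4 CPM in the MWA library and 35.6 CPM in the MWA plus TIGIT library. Tigit in T cell-like barcodes stood at 7.95 and 10.4 CPM and Pvr in macrophage-like barcodes at 22.2 and 19.6 CPM, below those floors, so the counts do not show that neutrophils lack these genes. The list of checkpoint ligands and the TIGIT axis had 1 tested gene of 13, Cd274, which was neither higher nor lower with the main limits, and its sum was 1123 and 1187 CPM. Cd274 encodes PD-L1 and stood at 598 CPM in the MWA library and 629 CPM in the MWA plus TIGIT library (0.07, -0.58 to 0.75), against 33.2 and 29.4 CPM in T cell-like barcodes. In the MWA library 13 of its 33 UMIs lay in 1 cell. Its ratio was 1.39 with at least 50 S100a8 and S100a9 UMIs and 1.02 without any C1q UMI, but -0.54 in neutrophils with at least 500 genes and -0.78 with cells thinned to 1000 UMIs, so no direction is given. Pdcd1lg2, which encodes PD-L2, had 4 and 2 UMIs (-1.61, -5.08 to 1.19).

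Genes linked to suppression by tumor neutrophils gave 0 higher and 1 lower of 6 tested, beside 12.6% higher and 9.87% lower over all tested genes, with a median of 0.00 and sums of 5290 and 4142 CPM (-0.35, -0.58 to -0.12). Without barcodes above 5000 UMIs the sum ratio was -0.19 (-0.42 to 0.046), an interval that held equal levels. The lower gene was Spp1, which encodes the matrix protein osteopontin, at 1395 and 451 CPM (-1.63, -2.23 to -1.05) on 77 and 38 UMIs. It lay in 11 and 7 cells, and the cell with the most Ccl2 UMIs also held 31 of the 77. In the MWA plus TIGIT library 1 cell held 22 of the 38. Over the settings run the Spp1 ratio ranged from -4.88 to -0.79. Thbs1, a matrix glycoprotein gene, stood at 1558 and 1092 CPM (-0.51, -0.95 to -0.07), and at -0.31 (-0.76 to 0.13) without barcodes above 5000 UMIs. Siglecf, a marker of a subset described in lung tumors, had 0 and 1 UMI.

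Ldha and Hilpda were lower in the MWA plus TIGIT library, and ferritin genes gave large sums without a call. Of 15 tested hypoxia and glycolysis genes 1 was higher (Slc2a1) and 2 lower, beside 12.6% higher and 9.87% lower over all tested genes, with a median of -0.13. Ldha, which turns pyruvate into lactate, fell from 1576 to 961 CPM (-0.71, -1.17 to -0.26), but stood at -0.50 among neutrophils without a C1q UMI. Hilpda, a hypoxia-induced inhibitor of lipolysis, fell from 1504 to 938 CPM (-0.68, -1.14 to -0.22), but stood at -0.42 (-0.88 to 0.045) without barcodes above 5000 UMIs. Gapdh, another enzyme of the list, stood at 2536 and 2528 CPM, so glycolytic genes did not move together, and thinning to 1000 UMIs gave a list median of 0.34. Of 5 tested iron, metal and antioxidant genes none passed 1.5-fold, with a median of -0.23, but their sum was 78156 and 55383 CPM (-0.50, -0.56 to -0.44). Fth1 made up most of it, and its ratio of -0.56 (-0.62 to -0.49) was just short of 1.5-fold. Ftl1, the ferritin light chain, stood at 9022 and 7015 CPM (-0.36, -0.54 to -0.19), and at -0.17 (-0.35 to 0.0030) without barcodes above 5000 UMIs. The 13 mitochondrially encoded genes, which were not tested, summed to 9874 and 7169 CPM (-0.46, -0.63 to -0.29).

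The remaining lists had few tested genes, and their calls stand beside 12.6% higher and 9.87% lower over all tested genes. Eicosanoid synthesis had 1 higher (Alox5ap) of 2 tested and a median of 0.52, but 0 higher without barcodes above 5000 UMIs and a median of -0.082 without any C1q UMI. No gene was called among 2 tested pattern recognition and inflammasome genes (median 0.20), 6 survival and apoptosis genes (0.05), 2 transcription factors of granulopoiesis (-0.27), 7 Fc receptor and phagocytosis genes (0.07), 4 antigen presentation genes (0.19), 1 cell cycle gene (-0.08) and 2 macrophage genes (-0.09). Both tested monocyte genes, Ly6c2 and Plac8, were higher (median 2.26), although Ly6c2 stood at -0.28 with cells thinned to 1000 UMIs. The survival gene Mcl1, on which neutrophil lifespan depends, stood at 2536 CPM in the MWA library and 2956 CPM in the MWA plus TIGIT library. Cebpb, a transcription factor of emergency granulopoiesis, stood at 4910 and 4048 CPM (-0.28, -0.51 to -0.04, and -0.23, -0.47 to 0.015 without barcodes above 5000 UMIs), and the signaling adaptor gene Tyrobp at 4946 and 4688 CPM.

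Neutrophils of the same library differed among themselves. To compare cells at equal depth, each cell with at least 1000 UMIs was thinned to 1000 by drawing UMIs at random, which kept 24 neutrophils of the MWA library and 34 of the MWA plus TIGIT library and left out 22 and 21. At that depth a Cxcl2 UMI was found in 100% of neutrophils of the MWA library and 91.2% of the MWA plus TIGIT library, against 3.79% and 2.01% of T cell-like barcodes. Before thinning the Cxcl2 shares were 91.3% and 90.9% of neutrophils and 10.5% and 7.08% of T cell-like barcodes, whose median depths were 3498 and 3689 UMIs against 1057.5 and 1273 for neutrophils. A Retnlg UMI was found in 87.5% and 91.2% of thinned neutrophils and in 0.0505% and 0.0268% of thinned T cell-like barcodes (87.0% and 90.9% against 0.174% and 0.159% before thinning). Cd274 was found in 29.2% and 26.5% of thinned neutrophils, against 3.05% and 3.19% of T cell-like barcodes. Before thinning it was found in 28.3% and 34.5% of neutrophils and in 11.0% and 10.9% of T cell-like barcodes.

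UMIs of Ccl3 and Ccl4 were detected in part of the cells, and a cell at 0 UMIs may still make them. A UMI of either was found in 41.7% of thinned neutrophils of the MWA library (22.1% to 63.4%) and 44.1% of the MWA plus TIGIT library (27.2% to 62.1%). T cell-like barcodes, some of which make these chemokines, gave 14.1% and 17.5%, so they set no background. Of the 10 and 15 thinned neutrophils with such a UMI, 2 and 5 had exactly 1. Without thinning the neutrophil shares were 50% and 50.9%, and thinning all cells to 500 UMIs gave 41.3% and 47.3%. Before thinning, 7 cells of the MWA library and 12 of the MWA plus TIGIT library had UMIs of both genes, and 5 and 11 had UMIs of both Ccl4 and Cd274. The 5 cells with the most Ccl4 UMIs held 78.6% of all Ccl4 UMIs in the MWA library and 68.6% in the MWA plus TIGIT library.

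Cells with a Ccl3 or Ccl4 UMI carried more ferritin RNA in the MWA plus TIGIT library, while in the MWA library this depended on the thinning. In the MWA plus TIGIT library Fth1 stood at 88600 CPM in the 15 thinned cells with such a UMI and at 22895 CPM in the 19 without (log2 ratio 1.95, 1.79 to 2.11), and in the MWA library the ratio was 1.38 (1.23 to 1.53). With all cells kept and thinned to 500 UMIs the Fth1 ratio was 0.051 (-0.095 to 0.20) in the MWA library and 1.72 (1.53 to 1.91) in the MWA plus TIGIT library. At 1000 UMIs Ftl1 gave 1.14 in the MWA library and 2.03 in the MWA plus TIGIT library, and at 500 UMIs 0.40 and 0.90. The next ratios are at 1000 UMIs, where Spp1 gave 2.68 and 3.73. Atp6v0c, a subunit of the vacuolar proton pump, gave 1.42 and 2.76, and the protease inhibitor gene Cstb 1.49 and 1.10. Rsad2 gave 2.49 and 1.18. Lower in these cells were Lrg1 (-2.32 and -1.98), the antiproliferative gene Btg2 (-1.76 and -2.09), the lactate transporter gene Slc16a3 (-2.91 and -1.24) and the lysozyme gene Lyz2 (-1.10 and -1.03). These 10 had the largest ratios of shared direction among 183 genes, of which 120 had the same direction in both libraries. With cells thinned to 500 UMIs 101 of 168 genes did. At 500 UMIs 3 of the 10 (Spp1, Btg2 and Rsad2) were again among the 10 largest, Atp6v0c stood at 0.51 and 0.99, Lyz2 stood at -0.25 and -0.60, and Cstb at -0.078 and 1.26. The split is 1 random draw: in another draw 12 of 24 and 14 of 34 cells had a Ccl3 or Ccl4 UMI, 4 cells and 1 cell changed sides, and 4 of the 10 genes (Spp1, Lrg1, Btg2 and Fth1) were again among the 10 largest. There 109 of 181 genes had the same direction in both libraries. Fth1 then stood at 1.04 (0.88 to 1.19) in the MWA library and 1.40 (1.26 to 1.55) in the MWA plus TIGIT library. In the MWA library Slc16a3 stood at -0.81 (-2.27 to 0.55) and Lrg1 at -1.22 (-2.89 to 0.25), intervals that held equal levels. The Retnlg split left 3 cells without a UMI in each library, and 79 of 184 genes had the same direction in both. The 10 largest, of which none was among the 10 largest at 500 UMIs, were Gadd45b (1.75 and 3.01), Trem1, Rpl9, Rpl27, Mif, Hilpda, Csf3r, Hcar2, Ets2 and Ifitm1 (1.02 and 2.99), of which Gadd45b and Hilpda were among the 10 largest in the other draw, where 86 of 182 genes had the same direction. Retnlg helped choose the cells, and a cell without it had to carry Csf3r or Cxcr2, so the Csf3r ratio is set in part by the choice. With 3 cells on 1 side and genes listed for their shared direction, no conclusion is drawn from the Retnlg split. Rsad2 in the Ccl3 or Ccl4 split and Hcar2 in the Retnlg split stood at -0.22 and -0.066 in the other draw in the MWA plus TIGIT library.

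**Figure D4:**
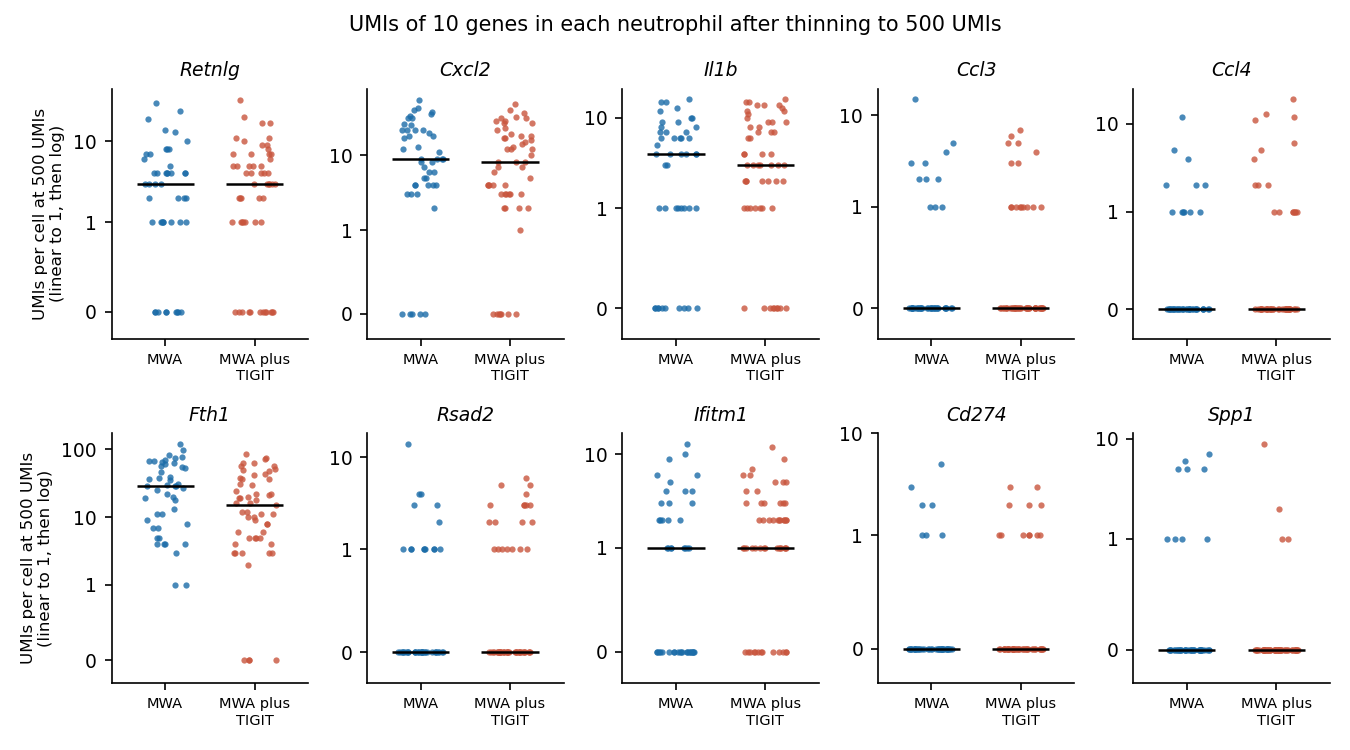
Each point is 1 neutrophil thinned to 500 UMIs, with the UMIs of a gene on the vertical axis (linear to 1, then log), the library on the horizontal axis and a black line at the median. At this depth a Fth1 UMI is found in 46 of 46 and 51 of 55 cells and a Spp1 UMI in 9 and 4.

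Interferon-induced RNA was spread unevenly over neutrophils. At 500 UMIs per cell the list summed to a median of 7 UMIs in the MWA library and 8 in the MWA plus TIGIT library, and the highest cell of each library held 45. Before thinning 12 neutrophils of the MWA library had UMIs of both Rsad2 and Isg15, 6 had Rsad2 alone, 5 Isg15 alone and 23 neither. In the MWA plus TIGIT library these counts were 21, 8, 7 and 19. Cells with 1 of these genes thus had the other more often than cells without it, as deeper cells would also show, and the part of depth was not tested.

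Neighboring genes had like ratios in some pairs and not in others. S100a8 and S100a9 lie 22.6 kb apart on chromosome 3 and had log2 ratios of 0.20 and 0.18, although the selection on their sum bears on both. Ccl3 and Ccl4 lie 13.2 kb apart on chromosome 11 and had ratios of -0.37 and 0.71. Cxcl2 and Cxcl3 lie 114.3 kb apart on chromosome 5 and had ratios of -0.38 and -0.12. The 19 leading genes with a position in the annotation lay on 12 chromosomes, with 4 (Hdc, Il1f9, Lcn2 and Slpi) on chromosome 2 and 3 (Chil1, G0s2 and Il1r2) on chromosome 1.

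Promoter sequence was read for letters that the NF-kB, interferon and C/EBP families of transcription factors are known to bind, all chosen after gene values were seen. The letters were GGNNTTTCC or its reverse strand GGAAANNCC for NF-kB, TTTCNNTTT or AAANNGAAA for the interferon-stimulated response element, and TTGCNNAA or TTNNGCAA for C/EBP. The NF-kB and interferon letters are shortened forms, set after counts of longer forms were seen, and can overlap each other. The promoter sequences searched ran from 250 bases before the start of transcription into the first transcribed bases. There the letters occur in 5.82%, 10.6% and 10.8% of 32851 RefSeq promoters of 27025 genes. Of the 16 chemokine genes 11 had a promoter in the table, and 6 of these 11 held the NF-kB letters (Cxcl1, Cxcl2, Cxcl3, Cxcl9, Cxcl10 and Ccl9). Of the 34 interferon-induced genes 25 had 1, and 17 of their 29 promoters (58.6%) held the interferon letters. Of the 20 leading genes 16 were matched, and 3 of their 21 promoters held the C/EBP letters. A match describes the sequence and does not show that a factor binds there. The promoters of Cxcl2 and Cxcl3, the most abundant neutrophil chemokine gene and the chemokine gene among the leading 20, and of Nfkbia, which rose, are printed with the NF-kB letters in capitals. Those of Rsad2 and Isg15, found together in cells, have the interferon letters in capitals, with 2 copies in Rsad2 and 3 overlapping copies in Isg15, and that of the selection gene Retnlg has the C/EBP letters in capitals. All are RefSeq sequences of build GRCm38.p6, 5′ to 3′ on the strand of the gene, ending at the base before the start: Cxcl2 chr5:90903649-90903898 plus strand, Cxcl3 chr5:90785851-90786100 plus strand, Nfkbia chr12:55492648-55492897 minus strand, Rsad2 chr12:26456453-26456702 minus strand, Isg15 chr4:156200819-156201068 minus strand and Retnlg chr16:48872358-48872607 plus strand.
Cxcl2: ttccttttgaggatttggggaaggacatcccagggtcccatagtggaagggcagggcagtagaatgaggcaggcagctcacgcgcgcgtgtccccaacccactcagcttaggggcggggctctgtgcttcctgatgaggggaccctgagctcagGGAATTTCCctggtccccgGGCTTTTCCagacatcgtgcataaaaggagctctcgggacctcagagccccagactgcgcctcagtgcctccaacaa
Cxcl3: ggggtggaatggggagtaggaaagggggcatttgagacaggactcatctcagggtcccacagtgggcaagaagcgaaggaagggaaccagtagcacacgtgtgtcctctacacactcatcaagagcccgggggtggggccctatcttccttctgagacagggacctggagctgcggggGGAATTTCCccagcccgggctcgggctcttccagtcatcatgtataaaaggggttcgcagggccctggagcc
Nfkbia: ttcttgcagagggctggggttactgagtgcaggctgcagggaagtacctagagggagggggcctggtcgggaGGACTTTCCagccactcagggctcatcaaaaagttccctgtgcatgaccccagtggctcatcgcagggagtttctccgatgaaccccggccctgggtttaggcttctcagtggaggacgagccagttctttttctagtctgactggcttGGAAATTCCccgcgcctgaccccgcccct
Rsad2: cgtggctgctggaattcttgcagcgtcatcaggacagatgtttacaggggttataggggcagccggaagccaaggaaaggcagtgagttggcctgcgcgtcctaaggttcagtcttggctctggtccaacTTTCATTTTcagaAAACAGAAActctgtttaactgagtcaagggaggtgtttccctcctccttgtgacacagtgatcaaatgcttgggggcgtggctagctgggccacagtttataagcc
Isg15: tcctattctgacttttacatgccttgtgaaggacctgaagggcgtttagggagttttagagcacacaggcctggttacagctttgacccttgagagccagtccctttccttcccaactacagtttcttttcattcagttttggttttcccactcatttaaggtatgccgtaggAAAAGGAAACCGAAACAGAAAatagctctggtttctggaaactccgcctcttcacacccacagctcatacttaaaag
Retnlg: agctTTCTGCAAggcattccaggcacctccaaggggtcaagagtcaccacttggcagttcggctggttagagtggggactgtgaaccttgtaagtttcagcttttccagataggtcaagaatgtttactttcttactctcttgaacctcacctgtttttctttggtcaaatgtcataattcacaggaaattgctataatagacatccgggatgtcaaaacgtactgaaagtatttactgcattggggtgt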

How the data were processed

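The counts are those the authors deposited, 1 matrix of UMIs per library. The matrix header names Cell Ranger 4.0.0 and the submitters' notes name 6.1.1. The members and the gene lists were chosen with earlier results of these data known. Macrophage-like barcodes had at least 10 C1q UMIs, monocyte-like at least 3 Ly6c2 and 10 Lyz2 UMIs, and T cell-like at least 2 Cd3 UMIs with under 10 Lyz2 UMIs. Each of these sets was also limited to under 20 S100a8 and S100a9 UMIs. Macrophage-like and monocyte-like barcodes had no Cd3 UMI, and monocyte-like and T cell-like barcodes had under 10 C1q UMIs. Doublets were not removed; a caller built on sums of 2 barcodes called 806 and 786 barcodes and 0 neutrophils. Named genes were the selection genes, the 10 highest and 10 lowest ratios, the 20 leading genes, up to 6 of each of 29 lists (377 genes, of which 376 matched; Clec7a matched no symbol and was not analysed) and 14 genes named whatever their level; results of a few of these are not reported here. Intervals are Clopper-Pearson for shares, Poisson for levels and conditional binomial for ratios. Positions are from GENCODE M21. Alternatives changed the S100, C1q, gene, mitochondrial, depth and count limits, doublets, scaling (TMM of edgeR 4.0.16), thinning and the top cell. Tools: Python 3.11.15, numpy 2.4.6, scipy 1.17.1, pandas 2.3.3, scikit-learn 1.9.0, matplotlib 3.10.9, R 4.3.3.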

Additional observations from a re-analysis of the deposited data

How the results depend on the processing

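Results were recomputed with 1 choice changed at a time, and not every result was run under every alternative. The share of neutrophils had 7 alternatives, the counts of higher and of lower genes 14 each. The count of genes at least 2-fold above other barcodes had 9. Each percent of cells with a UMI of Ccl3 or Ccl4, or of Retnlg, had 2 in each library. Of the alternatives, 10 were chosen after seeing the data. The others were listed as planned, although the alternatives of ratios were defined after the main results were known. The difference in the share of neutrophils was 0.359 percentage points (-0.135 to 0.870) with barcodes above 5000 UMIs left out. That limit left 46 neutrophils of 4396 kept barcodes in the MWA library and 53 of 3772 in the MWA plus TIGIT library. It thus removed mostly other barcodes. The count of higher genes was 29 without any C1q UMI (181 genes tested), 91 with cells thinned to 1000 UMIs and 10 with at least 100 UMIs per gene (179 tested). The count of lower genes was 27, 77 and 11 under the same alternatives, 68 with at least 10 S100 UMIs (561 tested) and 26 with at least 500 genes per barcode (281 tested). Genes at least 2-fold above other barcodes numbered 99 without any C1q UMI and 124 with at least 500 genes, 2 of the alternatives chosen after seeing the data, and fewer genes could be tested under both.

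The direction of 35 called genes was followed among 219 named genes. Of these 35, 29 kept 1 direction in every setting run for them, 9 settings for Ngp and 12 for the rest. Among the others, log2 ratios turned for Asprv1 (-0.053), Eif5 (0.40), Hspa5 (0.085) and Wfdc17 (-0.12) without any C1q UMI, Plac8 (-0.024) without barcodes above 5000 UMIs and Ly6c2 (-0.28) with thinned cells. Some settings could hardly turn a direction. Leaving out called doublets removed 0 neutrophils, and TMM factors and totals without S100a8 and S100a9 shifted all ratios alike. Many of the 35 genes were picked for large ratios in these same cells, so the count of 29 is a description. Among genes of the cell splits, thinning to 500 UMIs turned Cstb in MWA (-0.078), Hilpda in MWA (1.46), Ets2 in MWA (1.604), and in MWA plus TIGIT Trem1 (-1.01), Csf3r (0.19) and Hcar2 (-0.26). Another random draw, also chosen after seeing the data, turned Rsad2 (-0.22) and Hcar2 (-0.066) in MWA plus TIGIT. The cause was not tested. Of 1924 values of named genes 1795 lay within the main interval and 123 moved out of it without being counted as turned. Of 249 list medians 192 stayed within theirs and 57 moved. Turned directions were counted for called genes only. Genes under the count limit and tested genes without a call also changed sign in places, such as Cd274, at -0.78 with cells thinned to 1000 UMIs. The percent of cells with a UMI and the alternatives of ratios were defined after the main results were known. Depth limits the results: 55197 and 84249 neutrophil UMIs leave genes under about 40 UMIs without a usable ratio.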
